A study of Haematococcus lacustris with 4 samples.

Results

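The 56 genes described here had values above 0 in both libraries from 2 mM nitrate cultures, and 0 in each library from 15 mM nitrate cultures, of Haematococcus lacustris, a unicellular green alga also known as Haematococcus pluvialis. They were chosen by the measured values of all 4 libraries and make up 56 of the 13248 genes in the deposited table. Their zeros at 15 mM are therefore the definition of the set and not a finding about it. Strain CCAP 34/8 was grown in illuminated bubble columns under continuous dilution, with sodium nitrate in the feed to a final 2 mM or 15 mM as the labelled difference and light, temperature, pH and aeration described once for all columns. RNA was sequenced from 2 libraries per nitrate level. The labels do not tell whether the replicates of one level came from separate columns, and they do not assign either nitrate level to a cell form.

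Haematococcus is known for a life cycle in which swimming, flagellated cells (macrozoids) give way to non-motile palmelloid cells and then to thick-walled cysts. Shortage of nitrate and strong light are textbook triggers of the red ketocarotenoid astaxanthin, which the alga stores in lipid droplets. The study's title places its interest in macrozoids, palmelloid cells and astaxanthin. Which of these processes the 56 genes belong to cannot be told from the data used here. The identifiers are not paired with gene names or products. A table of genes made on a different assembly matched 0 of all 13248 genes, and so 0 of the 56. The genes are therefore given by identifier, with no function and no sequence, and lists of flagellar, carotenoid, nitrate assimilation or photosynthesis genes could not be counted.

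Levels are given in FPKM (fragments scaled by the length of the gene and by the mapped total of the library), which places genes of different length on one scale. The deposited table does not state its unit, so FPKM is an inference from the values. Over the members, the mean of the 2 libraries at 2 mM had a median of 161 FPKM, with 25% of the members below 75.0 FPKM and 25% above 249 FPKM. The level was at least 50 FPKM in 46 members, at least 100 FPKM in 38, at least 500 FPKM in 9 and at least 1000 FPKM in 4. In replicate 1 the members ran from 6.19 to 11082 FPKM with a median of 125 FPKM, and in replicate 2 they ran from 6.98 to 14649 FPKM with a median of 142 FPKM. By rank, 31 members were in the upper 50% of the 3262 genes above 0 in replicate 1. In replicate 2, 37 were in the upper 50% of the 3435 genes above 0. Those genes include many listed in only 1 of the 2 mM libraries. The 2148 genes above 0 in all 4 libraries had a higher median at 2 mM than the members, 175 FPKM, with 25% above 430 FPKM. The 15 mM libraries listed 11658 and 10794 genes above 0, and sequencing depth is unknown in every library, so a value of 0 is described here as listed at 0 and not as absence of the transcript. No member held one of the whole-number values that were divided by 1000 before use.

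**Figure D1:**
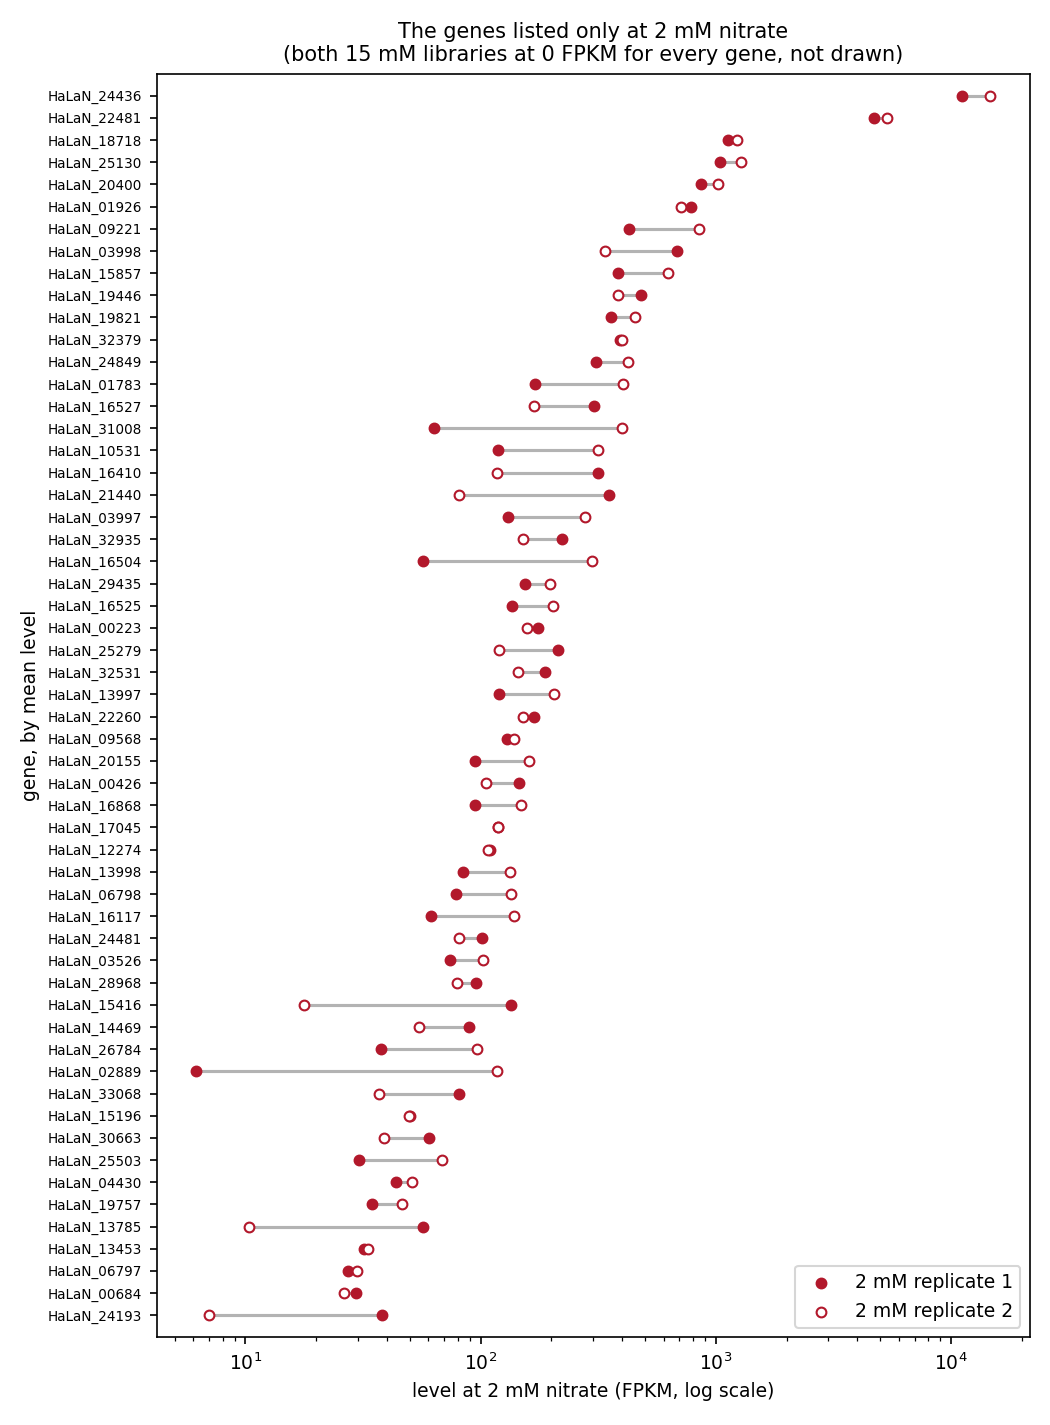
Level of each of the 56 genes at 2 mM nitrate, in FPKM on a log axis, with filled points for replicate 1, open points for replicate 2 and a line joining them; genes run down the page by their mean. The top pair of genes stands apart, at 4715 FPKM or more in both libraries, most genes lie between 50 and 500 FPKM, and the longest line belongs to HaLaN_02889. Both 15 mM libraries were at 0 for every gene and are not drawn.

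Abundance within the set was concentrated in a pair of genes. HaLaN_24436 had 11082 and 14649 FPKM in the 2 mM libraries, against 0 and 0 FPKM in the 15 mM libraries. This gene ranked 3 among all genes in replicate 1 at 2 mM and 1 in replicate 2. HaLaN_22481 had 4715 and 5359 FPKM in the 2 mM libraries, against 0 and 0 FPKM in the 15 mM libraries, and ranked 48 and 34 at 2 mM. No other member was among the 100 most abundant genes of either 2 mM library. The pair held 1.22% of all summed FPKM in replicate 1 and 1.53% in replicate 2, whereas the other members together held 0.902% and 1.01%. All 56 members summed to 2.12% and 2.54% of the libraries.

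Below this pair, 4 further genes were between 713 and 1283 FPKM. HaLaN_18718 had 1132 and 1224 FPKM at 2 mM, with a mean of 1178 ± 65.4 FPKM (SD, n = 2). HaLaN_25130 had 1037 and 1283 FPKM, and HaLaN_20400 had 864 and 1020 FPKM. HaLaN_01926 had 783 and 713 FPKM. In each of these 4 genes the replicates lay within 1.24-fold of each other, and the ranges of HaLaN_18718 and HaLaN_25130 overlapped, so their order was not resolved. The next 4 genes agreed less well between libraries: HaLaN_09221 had 425 and 852 FPKM and HaLaN_03998 had 684 and 337 FPKM, which differed by 2.00-fold and 2.03-fold in opposite directions. HaLaN_15857 had 383 and 628 FPKM and HaLaN_19446 had 479 and 384 FPKM. The ranges of these last 4 genes overlapped, so their order by mean is not beyond their spread. All 10 were at 0 FPKM in both 15 mM libraries.

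At the low end, the threshold of the rule was met by small values in 1 library. HaLaN_24193, the member with the lowest mean, had 38.1 and 6.98 FPKM at 2 mM. HaLaN_00684 had 29.6 and 26.2 FPKM, HaLaN_06797 had 27.4 and 29.8 FPKM and HaLaN_13453 had 31.8 and 33.2 FPKM, so that members at this level could agree closely. HaLaN_13785 had 56.9 and 10.4 FPKM. Just outside the rule, HaLaN_12891 had 1.86 and 4.41 FPKM at 2 mM, against 0.156 and 0 FPKM at 15 mM. HaLaN_10603 had 3.84 and 0.328 FPKM at 2 mM, against 0.435 and 0 FPKM at 15 mM. HaLaN_17331 had 22.8 and 38.5 FPKM at 2 mM, against 0 and 1.09 FPKM at 15 mM. The smallest values above 0 in the table were 0.356 and 0.268 FPKM in the 2 mM libraries and 0.0374 and 0.0716 FPKM in the 15 mM libraries.

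How well the 2 mM libraries agreed on the level of a member was not used to choose it. The median ratio of the higher to the lower replicate was 1.48-fold over the 56 members (an absolute log2 ratio of 0.57), and 17 members (30.4%) differed by more than 2-fold. The corresponding values were 1.53-fold and 30.6% for the 72 genes found in both 2 mM libraries and in 1 of the 15 mM libraries. They were 1.29-fold and 15.3% for the 2148 genes above 0 in all 4 libraries. Neither replicate was higher throughout: 23 members were higher in replicate 1 and 33 in replicate 2. The share past 2-fold and the median ratio did not follow level in the same way. Among the 18 members under 100 FPKM, 7 (38.9%) differed by more than 2-fold, against 53.6% of 28 genes found in 1 of the 15 mM libraries and 29.3% of 672 genes above 0 in all 4 libraries at that level. Their median ratio was 1.46-fold, against 2.08-fold and 1.55-fold in those other classes. Among the 29 members at 100 to 500 FPKM, 8 (27.6%) did so, against 20.0% of 35 and 12.6% of 1000 such genes, with median ratios of 1.57-fold, 1.44-fold and 1.30-fold. Of the 9 members at 500 FPKM or more, 2 (22.2%) did so, both only just past 2-fold, against 0 of 9 and 1.26% of 476 such genes, with median ratios of 1.24-fold, 1.25-fold and 1.15-fold. These shares are given as descriptions, since genes are not replicates.

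Single genes covered a wide range of agreement. HaLaN_17045 had 118 and 119 FPKM in the 2 mM libraries, HaLaN_15196 had 50.2 and 49.6 FPKM and HaLaN_12274 had 110 and 108 FPKM, the 3 closest pairs of values in the set. HaLaN_02889 had 6.19 and 117 FPKM, an 18.9-fold difference and the widest. HaLaN_15416 had 134 and 17.8 FPKM, a 7.53-fold difference in the other direction. HaLaN_31008 had 63.4 and 399 FPKM, a 6.29-fold difference, and HaLaN_13785 and HaLaN_24193, given above, differed by 5.49-fold and 5.47-fold. For these 5 genes the level at 2 mM was known only to within about that factor. Across the members, Pearson's r of log2 FPKM between the 2 mM libraries was 0.81 and Spearman's rho was 0.77. Within narrower ranges r was -0.15 for the 18 members under 100 FPKM and 0.17 for the 29 members at 100 to 500 FPKM. It was 0.94 for the 9 members at 500 FPKM or more. For genes found in 1 of the 15 mM libraries, r in these ranges was 0.35, 0.54 and 0.79. For genes above 0 in all 4 libraries it was 0.45, 0.58 and 0.95. The ranges were cut on the mean of the same 2 values, which limits r within them. The points share both libraries and are not independent.

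**Figure D2:**
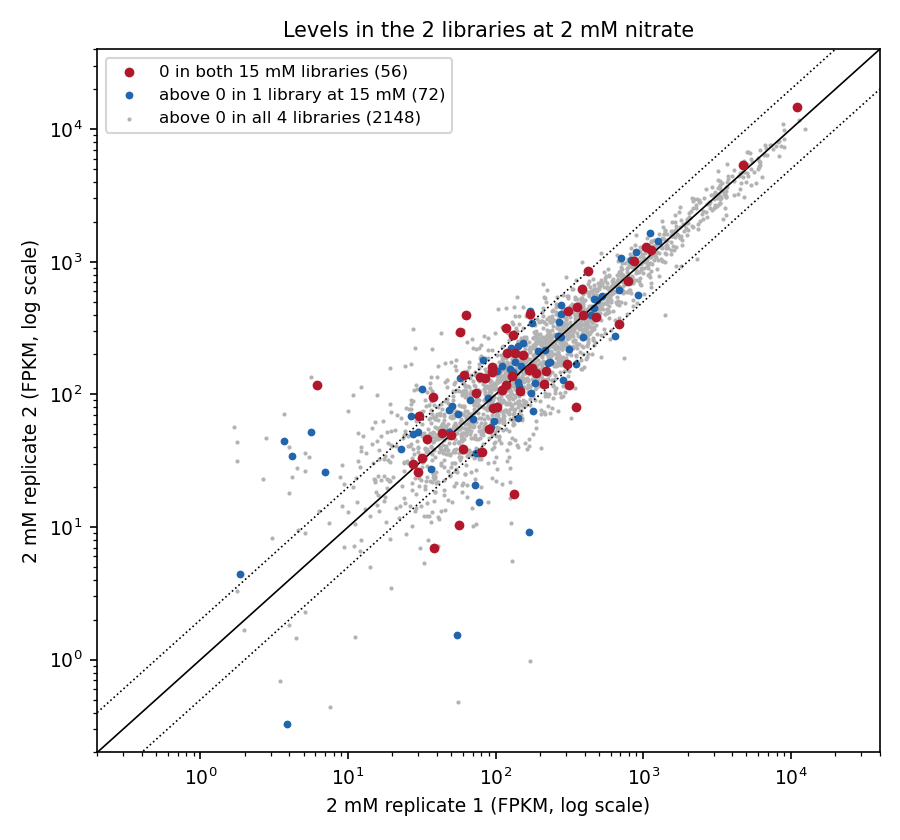
Level in replicate 2 against replicate 1 at 2 mM nitrate, both in FPKM on log axes, for the 56 genes at 0 in both 15 mM libraries (red), 72 genes above 0 in 1 library at 15 mM (blue) and 2148 genes above 0 in all 4 libraries (grey). The solid line marks equal values and the dotted lines a 2-fold difference; 17 of the 56 red points fall outside the dotted lines, 1 of them by 18.9-fold.

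Membership required a value above 0 in both 2 mM libraries, and many genes at 0 in both 15 mM libraries met this in 1 library alone. In all, 262 genes at 0 in both 15 mM libraries had a value in at least 1 library at 2 mM. Besides the 56 members, 88 had one in replicate 1 alone and 118 in replicate 2 alone. Of the 144 such genes in replicate 1, 38.9% were also above 0 in replicate 2, against 72.9% of the 2945 genes of replicate 1 that were above 0 in both 15 mM libraries. Of the 174 in replicate 2, 32.2% were also above 0 in replicate 1, against 69.9% of 3073. The shares differed in the same direction in each range of level. At 100 to 500 FPKM in replicate 1, 26 of 47 genes without a value at 15 mM (55.3%) had one in replicate 2, against 84.7% of 1174 genes above 0 in both. At 500 FPKM or more these shares were 7 of 9 (77.8%) and 99.2% of 475. Starting from replicate 2, they were 31 of 54 (57.4%) against 83.9% of 1164 at 100 to 500 FPKM, and 8 of 13 (61.5%) against 98.6% of 487 at 500 FPKM or more. No test was made of these differences. Applied to 3 libraries, the rule took 174 genes without replicate 1 at 2 mM and 144 without replicate 2 at 2 mM.

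**Figure D3:**
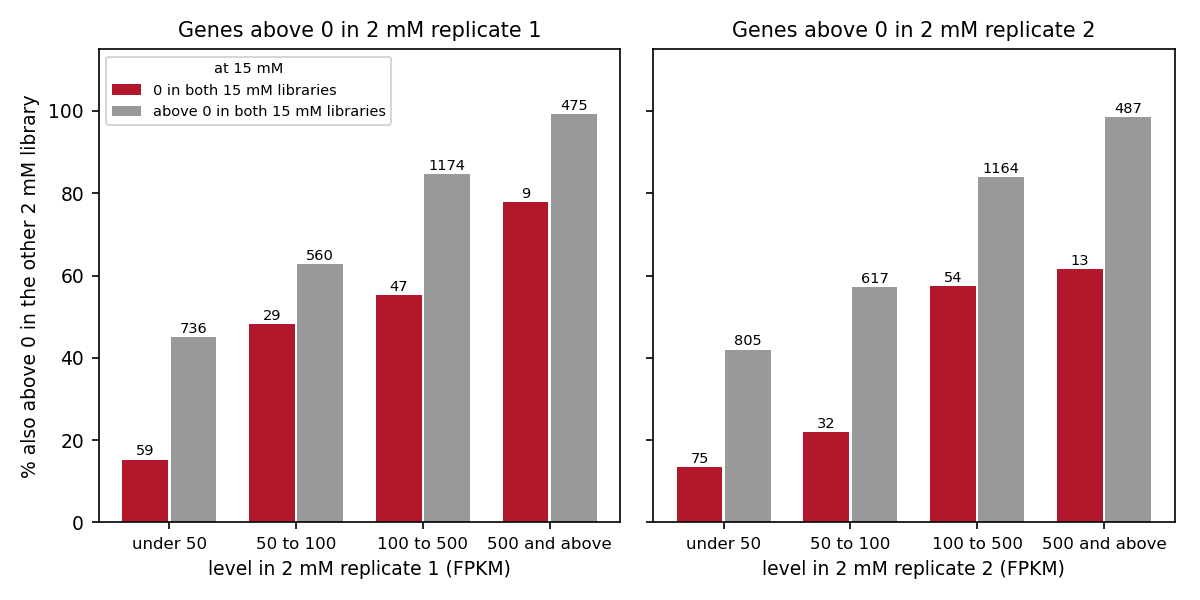
Percent of the genes above 0 in one 2 mM library that were also above 0 in the other, by their level in the first (FPKM), for genes at 0 in both 15 mM libraries (red) and genes above 0 in both (grey); the number of genes stands over each bar. The red bar is lower than the grey bar in every range, and at 500 FPKM or more the red bars rest on 9 and 13 genes.

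The boundary at 15 mM was also set by single libraries. The 72 genes with values in both 2 mM libraries and 1 of the 15 mM libraries had a median of 6.75 FPKM in that library, and 47 of them were under 10 FPKM there. Of these 72, replicate 1 at 15 mM listed 55 and replicate 2 listed 17. The rule would therefore take 111 genes without replicate 1 at 15 mM and 73 without replicate 2. By level at 2 mM, the share at 0 in both 15 mM libraries was 3.11% of 322 genes under 50 FPKM, 2.02% of 396 genes at 50 to 100 FPKM, 2.73% of 1064 genes at 100 to 500 FPKM, 2.17% of 230 genes at 500 to 1000 FPKM and 1.52% of 264 genes at 1000 FPKM or more. The share at 0 in 1 library at 15 mM was 4.35%, 3.54%, 3.29%, 2.61% and 1.14% in the same ranges. Members were thus found in each range of abundance at 2 mM.

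All 56 members passed the filter of the comparison across all genes, a minimum mean of 1 FPKM across libraries, which they could pass only through their 2 mM values. With limma on log2(FPKM + 1), 55 of the 56 were called higher at 2 mM at a Benjamini-Hochberg adjusted p under 0.05, against 3.97% of all 11815 genes tested (469 genes). The rule used the same contrast, so nothing is read from this count. The member not called was HaLaN_02889, whose 2 mM values were the farthest apart. Nothing is read from member calls in fits that left out 1 library, because the spread then comes from the other group alone. Without a 2 mM library, that spread is 0 for every member by the rule. No fold change is given for any member, since one side was listed at 0 throughout.

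Some members carried consecutive identifier numbers, and the genes with numbers next to theirs were examined after the values had been seen. The sources used here do not say whether the numbers follow the position of genes in the genome. There were 3 pairs of members with consecutive numbers. HaLaN_03997 had 131 and 279 FPKM in the 2 mM libraries, and HaLaN_03998 had 684 and 337 FPKM, so the libraries differed in opposite directions. HaLaN_06797 had 27.4 and 29.8 FPKM, and HaLaN_06798 had 78.5 and 135 FPKM. HaLaN_13997 had 120 and 205 FPKM, and HaLaN_13998 had 84.4 and 133 FPKM. Of the 56 members, 34 had at least 1 gene with a neighbouring number in the table, which gave 45 such genes, and 22 had none. Among the 45, 6 were themselves members and 3 had a value in 1 library at 2 mM and in neither 15 mM library. Together these 9 made 20.0%, against 1.98% of all genes in the table. The 6 members were chosen by the rule, and in the 3 pairs each is counted as the neighbour of the other, so nothing is read from the 20.0%. Of the 39 neighbours that were not members, 3 were listed at 2 mM alone. Of all 45, 22 (48.9%) were listed at 15 mM alone, against 66.6% of all genes, and 14 (31.1%) in both conditions, against 31.4% of all genes. Whether near-identical gene copies share reads in these pairs was not tested.

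The values of the neighbours that are not members were not used by the rule. Of the 14 listed in both conditions, 6 were above 0 in all 4 libraries, and in all 6 both 2 mM values lay above both 15 mM values, as they did in 49.7% of the 2148 genes above 0 in all 4 libraries. The other 8 were at 0 in 1 library. Of these, 7 lacked a value in 1 of the 2 mM libraries but had one in each 15 mM library. HaLaN_18717, next to HaLaN_18718, had 0 and 56.9 FPKM at 2 mM, against 74.7 and 90.1 FPKM at 15 mM. HaLaN_01925, next to HaLaN_01926, had 0 and 19.7 FPKM at 2 mM, against 26.6 and 23.2 FPKM at 15 mM. In HaLaN_19445 and HaLaN_24194 the value at 2 mM also lay below both 15 mM values. The rest of the 7 went the other way. HaLaN_00224 had 58.6 and 0 FPKM at 2 mM, against 8.29 and 12.2 FPKM at 15 mM. HaLaN_13999 had 75.7 and 0 FPKM, against 54.5 and 58.3 FPKM. HaLaN_24482 had 0 and 79.6 FPKM, against 31.1 and 40.6 FPKM. The last of the 8, HaLaN_18719, had 921 and 562 FPKM at 2 mM, against 15.8 and 0 FPKM at 15 mM.

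By limma, 5 of the 6 genes above 0 in all 4 libraries were called higher at 2 mM (adjusted p under 0.05 over all genes tested), against 17.8% of those 2148 genes. HaLaN_28969, next to HaLaN_28968, had 3428 and 3951 FPKM at 2 mM, against 307 and 175 FPKM at 15 mM (log2 difference 3.98, limma adjusted p = 0.0048). HaLaN_00222, next to HaLaN_00223, had 108 and 85.6 FPKM at 2 mM, against 7.25 and 7.80 FPKM at 15 mM (3.51, limma adjusted p = 0.00422). HaLaN_16409, next to HaLaN_16410, had 64.5 and 55.5 FPKM at 2 mM, against 4.32 and 6.63 FPKM at 15 mM (3.26, limma adjusted p = 0.00643). HaLaN_13786, next to HaLaN_13785, had 671 and 746 FPKM at 2 mM, against 109 and 92.1 FPKM at 15 mM (2.81, limma adjusted p = 0.00271). HaLaN_26785, next to HaLaN_26784, had 52.5 and 58.9 FPKM at 2 mM, against 20.4 and 24.5 FPKM at 15 mM (1.28, limma adjusted p = 0.0477), and did not pass with a pseudocount of 0.1 (limma adjusted p = 0.125) or with the replicate block (limma adjusted p = 0.244). The 4 genes before it differed by more than the spread between replicates in each setting that kept all 4 libraries. HaLaN_04431 had 325 and 333 FPKM at 2 mM, against 288 and 234 FPKM at 15 mM, and did not pass the test. Its log2 difference was 0.34 with all 4 libraries, 0.49 without replicate 1 at 15 mM and -0.0103 after quantile normalization. Quantile normalization raised the log2 difference of HaLaN_26785 to 3.71 (limma adjusted p = 0.00817), that of HaLaN_00222 to 5.05 and that of HaLaN_16409 to 4.76. It lowered that of HaLaN_13786 to 2.63 and that of HaLaN_28969 to 3.88. As for the members, nothing is read from calls in fits that left out 1 library. Without replicate 1 or replicate 2 at 15 mM, the log2 difference of HaLaN_00222 was 3.47 and 3.56. That of HaLaN_26785 was 1.15 and 1.40. Not every neighbour was higher at 2 mM: 13 had values in both 15 mM libraries and in neither 2 mM library, among them HaLaN_16526, whose number lies between the members HaLaN_16525 and HaLaN_16527. HaLaN_16526 had 0 and 0 FPKM at 2 mM, against 9.35 and 12.4 FPKM at 15 mM.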

How the data were processed

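The deposited table gives each gene one value per library, for 2 libraries at 2 mM and 2 at 15 mM nitrate, grouped by sample title. Per the labels' protocols, total RNA went into a total RNA library kit, although the molecule is labelled polyA RNA. FastQC, HISAT2, StringTie and limma are named in the submitters' processing notes. The sources used here give no version, genome build, annotation or strand handling. The deposited values were treated as FPKM: they are never negative, carry decimals and sum to 1293713 to 1498832 per library, above what TPM allows. They hold no counts, so depth and detection limits are unknown. Across the 4 libraries, 25 values above 0 were written without a decimal point and were divided by 1000 before any step.

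Members were genes above 0 in both 2 mM and 0 in both 15 mM libraries. Members and lists were chosen with earlier results of these data known. Levels, ranks and ratios between replicates were computed with pandas 2.3.3. The comparison across genes used limma 3.58.1 in R 4.3.3 (lmFit, eBayes with trend, two-sided) on log2(FPKM + 1), with genes of mean at least 1 FPKM and Benjamini-Hochberg adjustment, and was tested on simulated data. Fold changes on this scale understate the change of low genes. Since no label says that replicates were separate cultures, p-values reflect the spread of these libraries, possibly technical. Named genes were the 10 highest and 5 lowest members by mean, the 5 least and 3 most alike between replicates, members not called by limma, and the 3 genes just outside the rule. Genes with consecutive identifier numbers were added after the data were seen. Alternatives changed the pseudocount, filter, normalization, block, libraries and the thresholds of the rule.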

Additional observations from a re-analysis of the deposited data

How the results depend on the processing

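The 56 members came from thresholds at 0. Allowing up to 5 FPKM in both 15 mM libraries gave 94 genes, whose median at 2 mM was 126 FPKM, and a median absolute log2 ratio between the 2 mM replicates of 0.55. Allowing up to 1 FPKM gave 58 genes, a median of 147 FPKM and a ratio of 0.61. Requiring at least 100 FPKM in both 2 mM libraries left 30 genes, with a median of 227 FPKM and a ratio of 0.39, and requiring 10 FPKM left 54 genes and a ratio of 0.51. With log2(value + 1) the ratio was 0.56. Leaving out 1 library gave 73 to 174 genes, medians of 63.5 to 161 FPKM and, where both 2 mM libraries remained, ratios of 0.58 to 0.63.

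Of all genes, 5326 were lower at 2 mM by limma (469 higher), and 91.9% of calls were lower. Of the 13248 genes in the table, 8827 had no value above 0 in either 2 mM library. The direction was the other way among the 2148 genes above 0 in all 4 libraries. There, both 2 mM values lay above both 15 mM values in 1067 genes and below them in 411. The number of genes called lower was 2400 when the minimum mean was 10 FPKM (fewer genes tested) and 1198 after quantile normalization. After that normalization, 67.7% of calls were lower and the median log2 difference of all genes was 0.24 in place of -2.41. Quantile normalization gives all 4 libraries the same distribution, so a smaller median difference follows largely from the method. Leaving out 1 library gave 226 to 867 genes higher, 5194 to 6542 lower, 28 to 55 members called and 3 to 5 of the 6 neighbours called, a lone library being assumed to vary like the other group. Nothing is read from the member and neighbour calls in these fits, because the spread then comes from the other group alone. Deviations of same-numbered libraries were uncorrelated across genes (r = -0.00094), so the replicate block pairs them by number only. With the replicate block 267 genes were higher. In the settings that kept all 4 libraries, 52 to 56 members were called higher, against 267 to 571 of the 6393 to 13248 genes tested. The rule used the same contrast, so nothing is read from the member counts. Of the 6 neighbours, 4 to 5 were called in these settings. In the comparison as first described, 17.8% of the 2148 genes above 0 in all 4 libraries were called higher. This share was not computed for the other settings. HaLaN_04431 was not called, and its log2 difference was -0.0103 after quantile normalization. The settings for the member and neighbour counts were added after the data were seen.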
